A study of Homo sapiens with 10 samples.

Results

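The 10 genes described here handle iron and copper in the cell: TFRC, STEAP3 and SLC11A2, which bring iron in, FTH1 and FTL, which store it, NCOA4, which takes the store apart, IREB2 and ACO1, which sense it, the copper enzyme HEPH, and the metal buffer MT2A. They were taken by gene symbol from the deposited table of 12540 genes, all 10 were present, and all 10 were among the 12520 genes tested. The samples were SRA01-04 cells, an immortalised human lens epithelial line, transfected to overexpress RORα, a nuclear receptor (gene RORA; 5 libraries, OE1 to OE5), or with empty vector (5 libraries, EV1 to EV5). Every library of both groups came from cells given 10 µM selenite for 24 h, beginning 48 h after transfection. Selenite is a thiol-oxidising selenium salt that causes cataract in young rodents. No group was without selenite or without transfection, and the share of cells that took up the vector is not given in the labels. Nothing says that the replicates were separate cultures. The p-values therefore set the group difference only against the spread between these libraries, which may not be that between separate cultures.

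Iron enters most cells on transferrin, which the transferrin receptor carries into endosomes. There the metal is reduced and moved to the cytosol by DMT1, the product of SLC11A2. Ferritin, a hollow shell of heavy and light chains, stores what is not used, and NCOA4 delivers ferritin to lysosomes so that the iron is released. The iron regulatory proteins, encoded by ACO1 and IREB2, bind hairpins called iron-responsive elements when iron is scarce. Bound near the start of ferritin messages they block translation, and bound in the tail of the transferrin receptor message they protect it from decay. Iron is of interest in the lens because free iron and copper promote oxidation of lens proteins.

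The hairpins are shown because they tie 3 of the 10 genes to the products of 2 others. GENCODE 29 transcripts were searched on the sense strand for an unpaired C, 5 stem bases, the loop CAGTGN and 5 bases able to pair with the stem (Watson-Crick or G with T). It found the element in an untranslated region of FTH1, FTL and TFRC, and in 161 of 12489 tested genes with coding transcripts (1.29%). Capitals mark the 6 loop bases.
FTH1, 5′ UTR, chr11:61967575-61967601, minus strand: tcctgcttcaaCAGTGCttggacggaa
FTL, 5′ UTR, chr19:48965336-48965362, plus strand: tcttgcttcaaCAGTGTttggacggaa
TFRC, 3′ UTR, chr3:196050980-196051006, minus strand: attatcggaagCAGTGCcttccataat
TFRC, 3′ UTR, chr3:196050576-196050602, minus strand: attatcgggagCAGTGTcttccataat
TFRC, 3′ UTR, chr3:196050511-196050537, minus strand: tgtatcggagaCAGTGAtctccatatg
TFRC, 3′ UTR, chr3:196050464-196050490, minus strand: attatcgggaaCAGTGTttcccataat
The positions are on GRCh38. The matches in FTH1 and FTL sit before the coding sequence and those in TFRC after it. Elements that depart from the pattern searched are not listed. SLC11A2, known to carry a hairpin with an irregular stem in some of its transcripts, held no match to this strict pattern. RNA-seq measures message level only, so the translational arm of this control is not seen in these data.

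Read counts of 9 of the 10 genes differed between the groups. TFRC, STEAP3, SLC11A2, FTH1 and MT2A rose with RORα, HEPH, IREB2, ACO1 and FTL fell, and NCOA4 did not pass. Most of the changes were modest: MT2A (2.25-fold higher) and HEPH (7.77-fold lower) were the 2 that reached 2-fold. In the edgeR quasi-likelihood test with Benjamini-Hochberg adjustment over all genes, 56.1% of the 12520 genes tested passed 0.05, 28.6% higher and 27.5% lower, and 5.02% passed with at least 2-fold. All 5 RORα libraries lay above all 5 empty vector libraries for 20.8% of genes and below them for 18.9%. The 5 genes that rose and the 4 that fell all had groups that did not overlap. The 10 genes were chosen with results of these data known, so their count of 9 is a description and is not set against the background as a finding. Their median log2 fold change was 0.11, beside 0.00 for all genes tested. The label check was the transfected gene: RORA averaged 41.3 ± 2.21 CPM in RORα libraries and 14.99 ± 2.29 CPM in empty vector libraries (SD, n = 5 each; 2.74-fold higher, edgeR adjusted p = 4.36e-20). CPM is the read count scaled to library size, here with TMM factors.

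**Figure D1:**
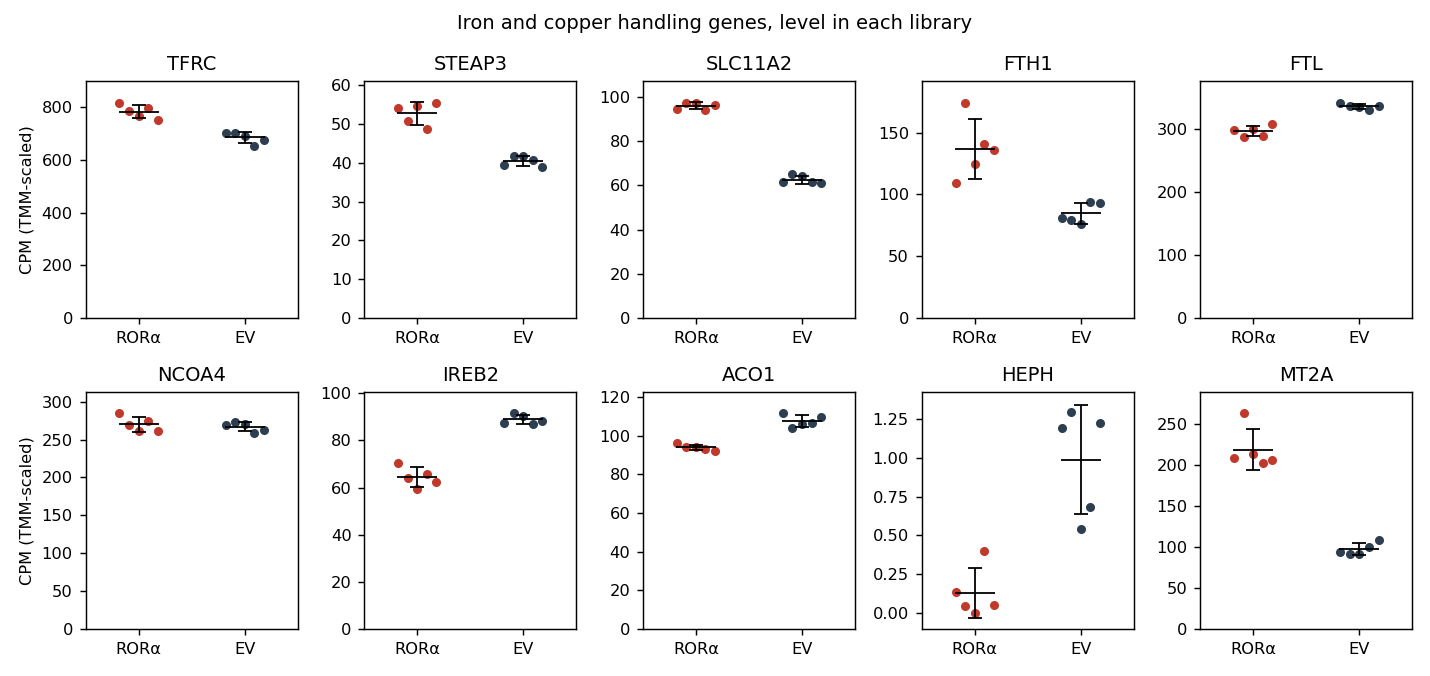
CPM (TMM-scaled) of the 10 genes in each of 5 RORα libraries (red, left) and 5 empty vector libraries (dark, right); bars are the mean and SD. The groups separate in every panel except that of NCOA4, where RORα libraries range from 260.9 to 284.8 CPM and empty vector libraries from 259.1 to 273.4 CPM.

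The libraries held 17475342 to 21956761 counts in the RORα group and 17653948 to 20356469 in the empty vector group. With 0 counts, the upper limit of 3 counts corresponded to 0.137 to 0.172 CPM depending on the library. Such limits and counting intervals cover counting error only. Of 16 lens epithelial markers 7 were in the table, of which 1 rose, 2 fell and 4 did not pass, and their summed level was 427.2 to 449.6 CPM in RORα and 398.9 to 416.1 CPM in empty vector libraries. The crystallin CRYAB averaged 0.370 CPM in RORα and 1.43 CPM in empty vector libraries (log2 fold change -1.95, edgeR adjusted p = 3.17e-06), BFSP1, a lens filament protein, 4.80 and 7.51 CPM (-0.65), and CDH2, N-cadherin, 346.5 and 316.3 CPM (0.13). The eye regulator PAX6, chosen after its values were seen, averaged 20.9 and 19.6 CPM (0.09, edgeR adjusted p = 0.285). FOXE3, PROX1 and CRYAA, also named after the table was seen, were not among its rows. Of 11 fibroblast markers 8 were measured and all 8 fell, and their summed level ran from 1032 to 1156 CPM in RORα libraries and from 3098 to 3332 CPM in empty vector libraries. Of 10 leukocyte markers 2 were measured, with a summed level of 2.16 to 3.12 CPM in RORα and 4.09 to 5.70 CPM in empty vector libraries (1 fell, and 2 without OE3), and of 7 endothelial markers 1 was, PECAM1, at 2.87 to 3.26 CPM and 5.30 to 6.90 CPM. Pigment epithelium and retina markers (4 of 8 measured) summed to 16.3 to 19.6 CPM in RORα and 14.3 to 16.8 CPM in empty vector libraries, and corneal markers (2 of 7) to 8.34 to 9.85 CPM and 7.77 to 9.77 CPM. The 2 corneal markers changed in opposite directions: KRT3, a corneal keratin, averaged 0.367 CPM in RORα and 2.67 CPM in empty vector libraries (log2 fold change -2.85), and CLU, clusterin, 8.78 and 6.25 CPM (0.49). These shifts stand beside every result below, and their part in it was not tested. In bulk RNA, fewer cells that express a gene and less of its RNA per cell cannot be told apart.

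The 3 genes of iron uptake all rose, by different amounts. SLC11A2 (ENSG00000110911, chromosome 12, 50979401 to 51028566, minus strand) encodes DMT1, which moves ferrous iron across membranes. It stood at 94.4, 97.3, 97.3, 94.2 and 96.2 CPM in OE1 to OE5 and at 61.3, 64.9, 64.0, 61.4 and 61.1 CPM in EV1 to EV5. Its libraries were the tightest of the uptake genes, with a gap between the groups far wider than either range. The change was 1.53-fold (log2 fold change 0.62, standard error 0.039, edgeR adjusted p = 1.15e-16).

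STEAP3 (ENSG00000115107, chromosome 2, 119223831 to 119265652, plus strand), the endosomal reductase that turns ferric into ferrous iron for DMT1, stood at 54.0, 50.7, 54.6, 48.7 and 55.5 CPM in OE1 to OE5. In EV1 to EV5 it stood at 39.4, 41.8, 41.7, 40.8 and 39.0 CPM. The lowest RORα library was above the highest empty vector library, and the change was 1.30-fold (log2 fold change 0.38, standard error 0.049, edgeR adjusted p = 1.98e-08). An antisense gene, STEAP3-AS1, overlaps 500 of its 4562 exon bases. The labels name no strand-marking step, so whether reads of STEAP3-AS1 entered the STEAP3 count is not known.

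TFRC (ENSG00000072274, chromosome 3, 196027183 to 196082189, minus strand), the transferrin receptor, was the most counted of the 10 genes. It stood at 817.6, 784.3, 766.5, 796.0 and 752.4 CPM in OE1 to OE5 and at 701.9, 702.0, 691.8, 654.4 and 676.8 CPM in EV1 to EV5. All RORα libraries were higher, but by only 1.14-fold (log2 fold change 0.19, standard error 0.028, edgeR adjusted p = 1.81e-07). Changes larger than this one were seen in 47.9% of all genes tested.

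The 2 ferritin chains moved in opposite directions. FTL (ENSG00000087086, chromosome 19, 48965301 to 48966878, plus strand), the light chain that helps to form the iron core, stood at 297.9, 287.7, 300.7, 289.5 and 307.5 CPM in OE1 to OE5 and at 341.9, 336.7, 335.3, 330.0 and 336.7 CPM in EV1 to EV5. It was lower in every RORα library and fell by 11.7% (log2 fold change -0.18, standard error 0.029, edgeR adjusted p = 1.82e-06). FTH1 (ENSG00000167996, chromosome 11, 61959718 to 61967660, minus strand), the heavy chain that oxidises ferrous iron, stood at 109.4, 174.2, 124.7, 140.5 and 135.5 CPM in OE1 to OE5. Its values in EV1 to EV5 were 80.6, 79.7, 76.1, 94.3 and 92.8 CPM. The RORα libraries were all higher but spread widely, OE2 being the highest and OE1 the lowest, with a coefficient of variation of 17.6% against 9.75% in the empty vector group. The change was 1.62-fold (log2 fold change 0.69, standard error 0.070, edgeR adjusted p = 4.13e-11).

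FTH1 is the least certain of these counts. Of its exon bases 62.4% overlap BEST1, a chloride channel gene on the opposite strand. On either strand, 57.4% of its 50-base windows occur exactly in transcripts of 17 other genes, 15 of them pseudogenes. Windows inside an overlap with an opposite-strand gene count as shared, so this share and the BEST1 overlap are not separate measures. BEST1 itself averaged 4.77 CPM in RORα and 2.51 CPM in empty vector libraries (log2 fold change 0.92). How reads that match several places or overlap 2 genes were counted is not stated in the labels, so the FTH1 count may hold only part of its reads. FTL shared 18.3% of its windows with 2 pseudogenes, while the other 7 genes apart from STEAP3 (9.83%, with 1 gene) shared at most 4.53%. The share of STEAP3 can likewise come from its overlap with STEAP3-AS1.

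NCOA4 (ENSG00000266412, chromosome 10, 46005088 to 46030714, minus strand), the receptor that hands ferritin to autophagy, did not pass. Its values were 284.8, 269.0, 260.9, 274.1 and 261.4 CPM in OE1 to OE5 and 269.4, 273.4, 270.4, 259.1 and 262.1 CPM in EV1 to EV5. The groups overlapped throughout, with a log2 fold change of 0.02 and a 95% interval of -0.047 to 0.081 (edgeR adjusted p = 0.669). Missing the threshold does not show that the level was the same.

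The messages of both iron regulatory proteins fell. IREB2 (ENSG00000136381, chromosome 15, 78437431 to 78501456, plus strand) encodes IRP2, which is degraded when iron is plentiful. It stood at 70.7, 64.1, 59.6, 65.8 and 62.4 CPM in OE1 to OE5 and at 87.3, 91.6, 90.6, 87.1 and 88.1 CPM in EV1 to EV5. Each RORα library was below each empty vector library, and the level fell by 27.4% (log2 fold change -0.46, standard error 0.043, edgeR adjusted p = 6.96e-12).

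ACO1 (ENSG00000122729, chromosome 9, 32384603 to 32454769, plus strand) encodes IRP1, which is a cytosolic aconitase when it holds an iron-sulfur cluster and binds RNA when it does not. It stood at 96.1, 94.2, 94.3, 93.1 and 92.3 CPM in OE1 to OE5 and at 111.7, 103.9, 106.1, 106.8 and 109.6 CPM in EV1 to EV5. The groups did not overlap, and the level fell by 12.6% (log2 fold change -0.19, standard error 0.037, edgeR adjusted p = 2.22e-05).

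HEPH (ENSG00000089472, chromosome X, 66162549 to 66268867, plus strand), hephaestin, is a copper-bearing ferroxidase of the cell surface that works with the iron exporter ferroportin. It was close to the limit of detection, with 3, 1, 0, 7 and 1 counts in OE1 to OE5 and 22, 26, 11, 12 and 24 counts in EV1 to EV5. All 5 empty vector libraries were higher, and 7 of the 12 RORα counts came from OE4. The level averaged 0.127 ± 0.160 CPM in RORα libraries and 0.989 ± 0.349 CPM in empty vector libraries (SD, n = 5 each; log2 fold change -2.96, standard error 0.50, edgeR adjusted p = 3.03e-06). From the summed counts, 12 against 95, the empty vector level was 8.15 times that of the RORα group, with a 95% counting interval of 4.45 to 16.3. Without OE4 the counts were 5 against 95 and this ratio was 16.1, with an interval of 6.65 to 50.7 (log2 fold change -3.88). Changes larger than that of HEPH were seen in 0.192% of genes tested.

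MT2A (ENSG00000125148, chromosome 16, 56608199 to 56609497, plus strand), a metallothionein that binds zinc and copper through its many cysteines, rose 2.25-fold. It stood at 208.4, 263.1, 213.0, 202.9 and 206.2 CPM in OE1 to OE5 and at 93.9, 91.8, 91.4, 100.2 and 109.1 CPM in EV1 to EV5. OE2 stood above the other 4 RORα libraries, as it did for FTH1, and all 5 were above the empty vector libraries (log2 fold change 1.17, standard error 0.052, edgeR adjusted p = 1.05e-21). Without OE2 the log2 fold change was 1.09. Larger changes were seen in 3.55% of genes tested.

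**Figure D2:**
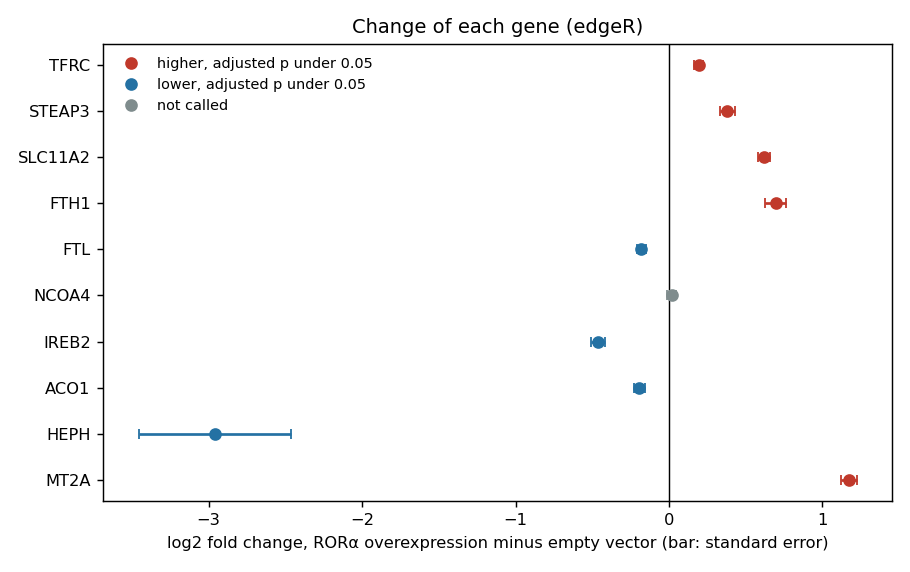
Log2 fold change of each gene, RORα overexpression minus empty vector, from edgeR; points are estimates, bars 1 standard error, red higher, blue lower and grey not called. HEPH, at -2.96, has the widest bar (0.50), and the others lie between -0.46 and 1.17.

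Metallothionein promoters are known for metal-responsive elements, the sites of the zinc-sensing factor MTF1, so the 250 bases before the RefSeq start of each gene (GRCh38.p14) were searched on both strands for TGCACNC or TGCGCNC. RefSeq promoters were matched for 9 of the 10 genes, all but FTH1, which was therefore not searched. MT2A held 7 matches, a number that 0.033% of 27305 promoters reached, and 24.7% of all promoters held any. TFRC had 3 matches, and NCOA4 and IREB2 had 1 each. These windows of MT2A show 4 of the 7, with the matches in capitals.
MT2A, chr16:56608412-56608441, plus strand: gcccGTGTGCAgagccgggTGCGCCCggcc
MT2A, chr16:56608492-56608506, plus strand: gggcGTGTGCAggca
MT2A, chr16:56608526-56608540, plus strand: ctttTGCACTCgtcc
The matches printed as GTGTGCA are on the minus strand. GENCODE 29 also annotates a longer MT2A transcript that starts 385 bases upstream of the RefSeq start, so these windows lie inside its first exon. MTF1 averaged 37.0 CPM in RORα and 32.1 CPM in empty vector libraries (log2 fold change 0.20, edgeR adjusted p = 0.00154). AGGTCA, the core half-site bound by RORα and other nuclear receptors, was found in 0 of the 9 promoters and in 12.1% of all promoters. TGACNNNGC, the core of the antioxidant response element, was found in that of MT2A and in 3013 of the 27305. A match is a description and not a binding site, and the lack of a match concerns these windows only.

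Ratios of 2 genes inside a library do not depend on how libraries are scaled, and 5 were compared by exact two-sided permutation tests of 5 against 5 libraries, where the smallest possible p is 0.0079. The FTL to FTH1 count ratio was 2.72, 1.65, 2.41, 2.06 and 2.27 in OE1 to OE5 and 4.24, 4.23, 4.41, 3.50 and 3.63 in EV1 to EV5. All RORα ratios were below all empty vector ratios (1.82-fold lower in RORα, exact permutation p = 0.0079, adjusted over the 5 ratios 0.0099). This separation is no further result, because every RORα library was already lower for FTL and higher for FTH1. The NCOA4 to FTH1 ratio had geometric means of 2.00 in RORα and 3.16 in empty vector libraries and the IREB2 to ACO1 ratio of 0.685 and 0.827, neither with overlap (exact permutation p = 0.0079, adjusted 0.0099 for both). IREB2 therefore fell more than ACO1, by 1.21-fold.

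The SLC11A2 to TFRC ratio ran from 0.115 to 0.128 in RORα libraries and from 0.0874 to 0.0939 in empty vector libraries (1.34-fold higher in RORα, exact permutation p = 0.0079, adjusted 0.0099). SLC11A2 rose more than TFRC. The TFRC to FTH1 ratio was 7.47, 4.502, 6.15, 5.66 and 5.55 in OE1 to OE5 and 8.71, 8.81, 9.09, 6.94 and 7.29 in EV1 to EV5. Here the groups overlapped through OE1, EV4 and EV5 (1.40-fold lower in RORα, exact permutation p = 0.024, adjusted 0.024). The 3 ratios with FTH1 carry the uncertainty of its count, and the 5 share genes and are not independent.

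**Figure D3:**
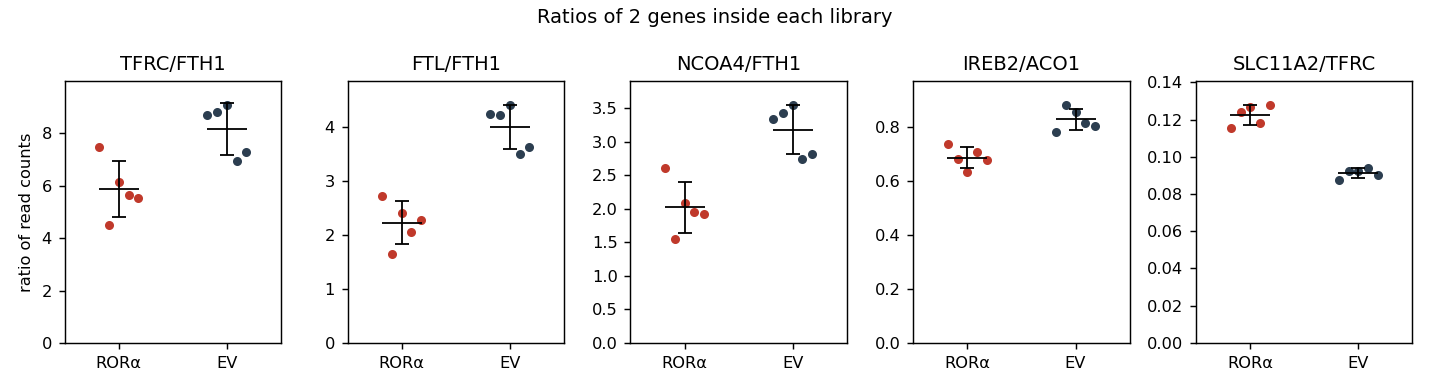
Ratio of read counts of 2 genes inside each library, RORα (red, left) and empty vector (dark, right), with mean and SD; axes start at 0. The 3 ratios over FTH1 and IREB2/ACO1 are lower in RORα libraries, SLC11A2/TFRC is higher, and of these 5 only TFRC/FTH1 has groups that overlap.

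Levels between genes were compared per kilobase of annotated exon, a rough scale because it counts the exons of all transcripts. In both groups FTL led, at 337.8 ± 9.32 CPM per kilobase in RORα and 382.8 ± 4.87 in empty vector libraries (SD, n = 5 each), and HEPH was last. In RORα libraries the order after FTL was MT2A (168.4), TFRC (99.3), FTH1 (67.4), NCOA4 (66.2), ACO1 (12.4), STEAP3 (11.6), SLC11A2 (9.45) and IREB2 (5.97). The ranges of FTH1 and NCOA4 overlapped in that group. In empty vector libraries it was TFRC (86.9), MT2A (74.9), NCOA4 (65.4), FTH1 (41.7), ACO1 (14.2), STEAP3 (8.89), IREB2 (8.23) and SLC11A2 (6.17), where TFRC and MT2A overlapped. The order on this scale thus changed at 3 places: MT2A stood above TFRC, FTH1 beside NCOA4 and SLC11A2 above IREB2 in RORα libraries. The place of FTH1 carries the uncertainty of its count. That of MT2A depends on an annotated exon length of 1299 bases, which is the whole span of the gene.

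Wider lists are given as counts, to be read against the 28.6% of all tested genes that were higher and the 27.5% that were lower. No test compared a list with all genes. In the list of iron uptake, export and storage, of 30 genes listed 20 were tested: 11 were higher, 4 lower and 5 not called, at a median log2 fold change of 0.20. Without OE2 the 4 that fell became 2. Without the genes described above, 7 of 13 rose and 2 fell. SLC25A37, mitoferrin, which carries iron into mitochondria, averaged 124.6 CPM in RORα and 74.5 CPM in empty vector libraries (log2 fold change 0.74, edgeR adjusted p = 7.47e-20). SLC39A8, a zinc transporter that also takes up iron, averaged 40.6 and 25.4 CPM (0.68). STEAP2 and STEAP1, relatives of STEAP3, averaged 9.99 CPM and 16.9 CPM in RORα libraries and 6.07 CPM and 11.1 CPM in empty vector libraries (0.72 and 0.61). Both rose, with groups that did not overlap. SLC40A1, the iron exporter ferroportin, chosen after its values were seen, was barely counted at 1.15 CPM in RORα and 1.18 CPM in empty vector libraries (-0.05, edgeR adjusted p = 0.902). HEPHL1, a relative of HEPH also chosen after its values were seen, had a log2 fold change of -0.55 (edgeR adjusted p = 0.0519).

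**Figure D4:**
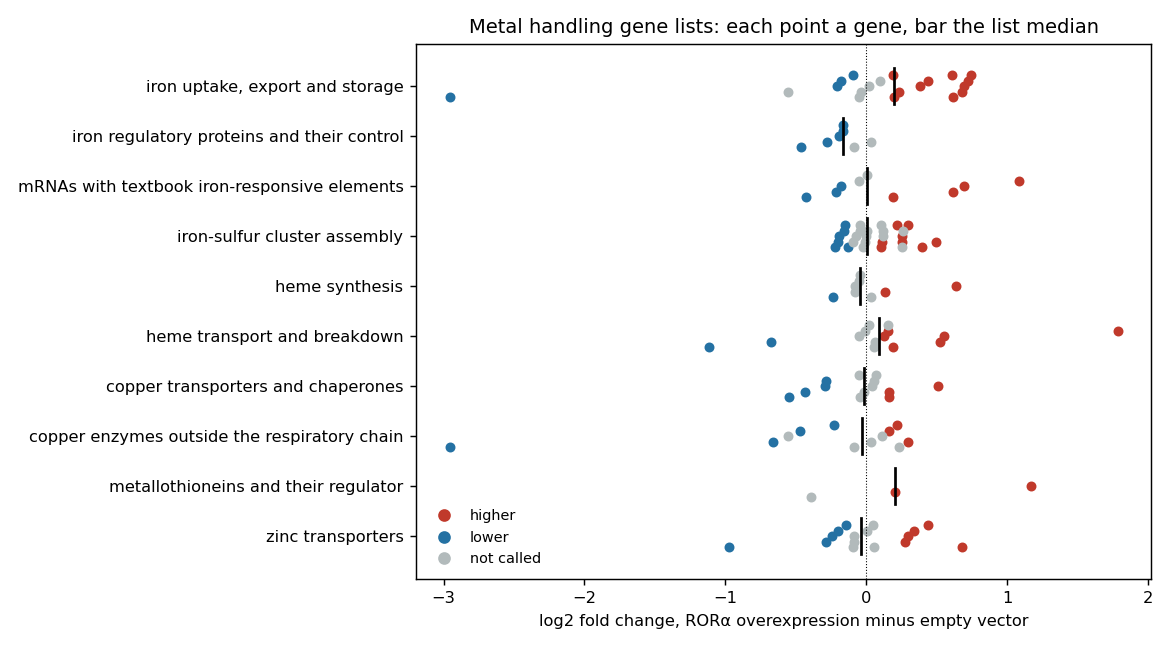
Log2 fold change, RORα overexpression minus empty vector, of every tested gene in 10 metal handling lists; red higher, blue lower, grey not called, and the black bar is the list median. Medians lie between -0.17 for iron regulatory proteins and their control and 0.20 for 2 lists. These are iron uptake, export and storage, and metallothioneins and their regulator. The latter has 3 tested genes, and its median is the value of the regulator MTF1, with MT2A at 1.17 and MT1X at -0.39.

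Of 7 genes of the iron regulatory proteins and their control, 5 were lower, 0 higher and 2 not called (median -0.17), beside 27.5% lower over all genes. Beside IREB2 and ACO1 these were FBXL5, the iron-sensing subunit of the ligase that degrades IRP2, CUL1, the scaffold of that ligase, and HERC2, a ligase that targets FBXL5. FBXL5 averaged 70.7 CPM in RORα and 79.1 CPM in empty vector libraries (log2 fold change -0.16), CUL1 100.5 and 112.9 CPM (-0.17), and HERC2 196.2 and 237.7 CPM (-0.28). All 3 fell, the largest edgeR adjusted p being that of FBXL5 (0.00109). Of 9 textbook carriers of iron-responsive elements tested, 4 rose, 3 fell and 2 did not pass (median 0.00). CDC14A, a phosphatase, had the largest change, at 11.9 CPM in RORα and 5.62 CPM in empty vector libraries (1.08), while EPAS1, the oxygen-regulated factor HIF-2α, fell by 0.43 and CDC42BPA, a kinase, by 0.22 on the log2 scale.

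Of 27 iron-sulfur assembly genes, 8 were higher, 6 lower and 13 not called (median 0.01), and without EV3 the 6 became 3. The shares higher and lower were near those over all genes (28.6% and 27.5%). CIAO2B, which passes clusters to cytosolic and nuclear proteins, had a log2 fold change of 0.40, FDXR, ferredoxin reductase, of 0.30 and ISCA2 of 0.26. The groups overlapped for FDXR and for ISCA2. Of 8 heme synthesis genes 2 rose, 1 fell and 5 did not pass (median -0.05). PPOX, which oxidises protoporphyrinogen, averaged 13.1 and 8.44 CPM (0.64), ALAS1, the first enzyme, had 0.13 and UROS fell by 0.24. For ALAS1 the groups overlapped (edgeR adjusted p = 0.00739).

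HMOX1, heme oxygenase 1, which frees the iron, averaged 11.9 CPM in RORα and 19.0 CPM in empty vector libraries (-0.68, edgeR adjusted p = 8.38e-10). BLVRB, a biliverdin reductase chosen after its values were seen, averaged 81.8 and 56.9 CPM (0.52). Of 14 genes of heme transport and breakdown, 6 rose, 2 fell and 6 did not pass (median 0.09). FLVCR2, a relative of the heme exporter FLVCR1, had 97 counts in RORα and 27 in empty vector libraries (1.79, edgeR adjusted p = 0.000246), ABCB6, a porphyrin transporter, 46 and 98 counts (-1.12), and SLC48A1, which moves heme out of endosomes and lysosomes, averaged 20.5 and 14.0 CPM (0.56). For ABCB6 the groups overlapped (edgeR adjusted p = 0.005).

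Of 13 copper transporters and chaperones 3 rose, 4 fell and 6 did not pass (median -0.01). ATP7B, a copper-exporting ATPase, averaged 15.9 CPM in RORα and 21.4 CPM in empty vector libraries (-0.43), CUTC 25.4 and 31.1 CPM (-0.29), MEMO1 3.12 and 4.56 CPM (-0.54), and COX19, a cytochrome c oxidase assembly factor, 25.7 and 18.03 CPM (0.51). For MEMO1 the groups overlapped (edgeR adjusted p = 0.00699). SLC31A1, the main copper importer, chosen after its values were seen, averaged 89.9 and 80.3 CPM (0.16, edgeR adjusted p = 0.000931). Of 12 copper enzymes outside the respiratory chain 3 rose, 4 fell and 5 did not pass (median -0.03). In both copper lists the share called was near the 56.1% over all genes. Beside HEPH the falls were MOXD1 (34.6 CPM in RORα and 54.8 CPM in empty vector libraries, -0.66), LOXL2, a lysyl oxidase that crosslinks collagen (576.8 and 799.9 CPM, -0.47), and SOD1, the copper and zinc superoxide dismutase (153.5 and 179.6 CPM, -0.23). AOC2, an amine oxidase, had a log2 fold change of 0.30, with groups that overlapped (edgeR adjusted p = 0.0114). Of 12 genes of the metallothionein list 3 were in the table, MT2A, MTF1 and MT1X. MT1X, chosen after its values were seen, had 76 counts in RORα and 97 in empty vector libraries (-0.39, edgeR adjusted p = 0.25). The difference between MT2A and MT1X was not tested.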

How the data were processed

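Per the file headers, the authors deposited raw read counts and FPKM values for 12540 genes in 10 libraries. Per the submitters' processing notes, reads were aligned to GRCh38 with HISAT2 2.2.1 and counted with HTSeq. The sources used here give neither annotation, strand setting nor gene filter. The FPKM that the authors deposited divides by a gene length that was 0.993 to 19.0 times the exon union of these 10 genes in GENCODE 29, so FPKM was not compared between genes.

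Counts were filtered with filterByExpr (minimum count 10, minimum total 15), removing 20 genes, scaled with TMM and fitted with edgeR 4.0.16 in R 4.3.3 (glmQLFit, glmQLFTest, two-sided, Benjamini-Hochberg over all genes, threshold 0.05). Standard errors are the log2 fold change divided by the square root of F. Alternatives were other size factors, no filter, a replicate block, each library left out, DESeq2 1.42.0, and limma 3.58.1 on log2(FPKM + 1), with and without a mean FPKM of at least 1, and on log2(FPKM + 0.1). Applying them to the lists was decided after seeing the data. The edgeR step was tested on simulated data. No 2 libraries of a group were copies (chi-square per degree of freedom 2.28 to 5.73 over 20 pairs). Positions, overlaps and hairpins came from GENCODE 29, which held 12528 gene IDs and lacked 12, and promoters from RefSeq.

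The genes and lists were chosen with earlier results of these data known. Genes named were the 10, RORA and, from each list, up to 4 others past the threshold by size of change. Any further gene is said to be chosen after its values were seen. Not every gene that this rule allows is described.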

Additional observations from a re-analysis of the deposited data

Results flagged for a closer look

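MT2A stood at 263.1 CPM in OE2, apart from the other 4 RORα libraries, which ran from 202.9 to 213 CPM. The gap to the next library was 0.833 of the group's whole range. Of 32 groups of 5 libraries checked (10 genes, RORA and 5 ratios in both conditions) this was the 1 that stood out, and chance alone marks about 5% of such groups. Without OE2 the log2 fold change of MT2A was 1.09 in place of 1.17, and it passed in edgeR.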

How the results depend on the processing

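Counts of the 10 genes called were 5 higher and 4 lower in edgeR with other size factors, without a count filter, in DESeq2 and without each library. The log2 fold change of HEPH missed the threshold with limma on log2(FPKM + 1) (-0.02, adjusted p = 0.139), a scale that understates low genes, and with log2(FPKM + 0.1) it was -0.16 (limma adjusted p = 0.0303). HEPH was left out by a mean FPKM filter of 1. NCOA4 changed sign without OE1, to -0.0035 (edgeR adjusted p = 0.937), ran up to 0.029 when other libraries were left out, and passed in none of its alternatives. HEPH ran from -3.88 to -2.67 and FTH1 from 0.59 to 0.77 over the 10 fits that leave out a library. RORA was 0.73 with limma on log2(FPKM + 1) and 1.37 to 1.51 without each library. AOC2 lost its call without OE5 (edgeR adjusted p = 0.0521). The 5 ratios kept their direction and stayed under 0.05 in 11 alternatives each, the highest exact permutation p, adjusted over the ratios, being 0.0397 for TFRC to FTH1. The number of genes higher ran from 2604 to 3591 and of genes lower from 2469 to 3531, both lowest with a mean FPKM of at least 1, where 8445 genes were tested. With that filter 5 fibroblast markers and 1 gene of iron uptake, export and storage fell. The same-number libraries showed residual correlations of -0.092 to 0.09, and 2 of 10 correlated best with their own number, so they were treated as unpaired. With the replicate number as a block 3543 genes were higher and 3406 lower, the 10 genes gave 5 and 4, HEPH had -2.99 and RORA 1.46. Depth limits HEPH, at 12 counts in the RORα group, and not the others, which had 3890 counts or more per group.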

Other observations

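Zinc transporters share carriers with iron. Of 16 tested from 24 listed, 5 rose, 5 fell and 6 did not pass (median log2 fold change -0.04), near the shares over all genes (28.6% higher and 27.5% lower). SLC39A10, a zinc importer, averaged 45.2 CPM in RORα and 88.9 CPM in empty vector libraries (-0.97, edgeR adjusted p = 1.71e-20). SLC39A14, which takes up iron as well as zinc, averaged 693.9 and 511.1 CPM (0.44), and SLC39A4, an importer of dietary zinc, 7.63 and 6.04 CPM (0.34). SLC30A1, the zinc exporter that MTF1 is known to induce alongside metallothioneins, was chosen after its values were seen and averaged 106.5 CPM in RORα and 86.8 CPM in empty vector libraries (0.29, edgeR adjusted p = 3.69e-07), with groups that did not overlap. Of the metallothioneins measured, MT2A rose and MT1X did not pass (-0.39, edgeR adjusted p = 0.25). The part of MTF1 in these changes was not tested.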
